A study of Apis mellifera with 18 samples.

Results

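Brains of untreated worker honey bees (Apis mellifera) at 10 d of adult life were compared with brains of untreated workers at 1 d, the full span of age that the control bees cover. The 6 libraries were chosen from the 18 of the series by their labels, 3 from control bees at 10 d (C_10d) and 3 from control bees at 1 d (C_1d). Newly emerged bees were caged and offered 2 mL of a 50% sucrose solution, with no insecticide in either group, and each library held the RNA of 15 pooled brains. The other libraries came from control bees at 5 d (C_5d) and from bees given 0.01 mg/L of the neonicotinoid dinotefuran at 1, 5 and 10 d (DT_1d, DT_5d and DT_10d). Age goes together with time in the cage and on sucrose in every group, so that these cannot be told apart, and nothing in the labels says whether the 3 pools of a group came from separate colonies.

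A worker bee changes its tasks as it ages, from cleaning and nursing inside the nest to foraging outside. In nurses the paired hypopharyngeal glands, which lie in the head beside the brain, make the major royal jelly proteins (Mrjp) that are fed to larvae, and in older workers the same glands turn to carbohydrate-splitting enzymes such as the alpha-glucosidase Hbg3. Juvenile hormone, the storage protein vitellogenin and the hardening of the new cuticle also change over the first days of adult life. A dissected brain can carry pieces of gland, fat body, retina and muscle, and in pooled tissue fewer cells of a type and less RNA per cell cannot be told apart.

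Levels are given as FPKM (fragments scaled to the length of the transcript and to the number of mapped fragments) after each library was divided by its median ratio to the typical library, and values of a group are listed for replicates 1, 2 and 3 in that order. The median ratio was 1.29, 0.948 and 1.48 in C_10d and 1.65, 0.830 and 0.770 in C_1d. In C_10d the 10 most abundant genes took 49.3%, 57.3% and 44.9% of the summed FPKM, against 39.7%, 55.3% and 55.7% in C_1d. The number of reads behind each value is not known from the files, so the precision is that of the spread between libraries. The p-values measure only the spread within groups, pooled over the 6 groups of all 18 libraries. They assume that this spread is alike in every group. A gene was called changed at a Benjamini-Hochberg adjusted p under 0.05 from limma together with a log2 fold change (C_10d over C_1d) beyond 1 in size, and "rose" and "fell" are used for such genes. The fold changes were taken after adding 0.1 to each FPKM, which makes those of low genes smaller.

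Of the 3 libraries labelled C_1d, replicate 1 lay near the 10-d controls. The authors' alignment summary also gives this library the lowest share of exonic reads and the highest share of intergenic reads in the series. Whether that bears on its measured levels was not tested. Over all genes the Pearson correlation of C_1d replicate 1 was 0.973 with C_10d replicate 1, against 0.933 and 0.927 with C_1d replicates 2 and 3, which correlated at 0.985 with each other (a description across genes, which are not independent of each other). A scale with fed brains at both ends also placed it away from the other C_1d libraries. For the 1322 genes called between DT_10d and DT_1d, each control library was given a position between the DT_1d mean (0) and the DT_10d mean (1). The median position was 0.743, 0.124 and 0.053 in C_1d, 0.635, 0.587 and 0.798 in C_5d, and 0.807, 0.762 and 0.886 in C_10d. On this scale C_1d replicate 1 lay below the 3 C_10d libraries and within the range of C_5d. Correlations with the C_5d libraries were not computed. The library labelled C_1d replicate 1 thus stood apart from the other libraries of its label, whereas the 3 libraries of C_10d stood together. For genes in which this library stood apart, the pooled spread can be narrower than that within C_1d, and the p-values with it too small. All results are therefore given with this library and without it. It was set aside because of its measured values, and the p-values without it hold only given that choice. They rest on 2 libraries of C_1d and assume that these vary like the libraries of the other groups.

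**Figure D1:**
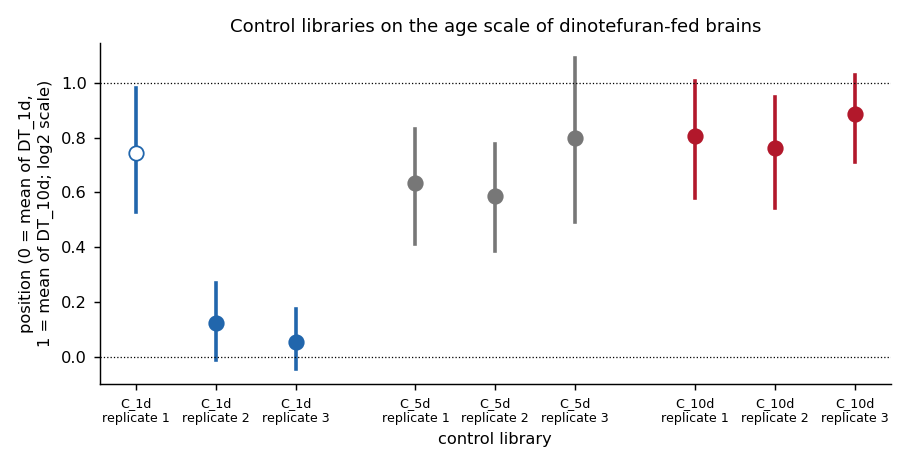
Position of each control library on the age scale of the dinotefuran-fed brains, where 0 is the mean of DT_1d and 1 the mean of DT_10d on the log2 scale (y axis), for C_1d, C_5d and C_10d replicates 1 to 3 (x axis). Points are medians over 1322 genes and lines run between the quartiles of the genes; the open point, C_1d replicate 1, is at 0.743, against 0.124 and 0.053 for the other C_1d libraries.

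With all 6 libraries, 102 of 9352 genes tested (1.09%) were called in limma, 23 that rose (0.246%) and 79 that fell (0.845%) in C_10d. Without C_1d replicate 1 the same test called 905 genes (9.68%), of which 316 rose (3.38%) and 589 fell (6.3%), and 100 of the 102 genes were among them, in the same direction. At an unadjusted p under 0.05 the numbers were 2129 with the library and 3332 without it. For 868 of the 905 genes (95.9%) C_1d replicate 1 was nearer to the C_10d mean than to the mean of the other C_1d libraries. Each library mattered when all 6 were used. Leaving out C_1d replicate 2 or 3 gave 10 and 11 genes, and leaving out C_10d replicate 1, 2 or 3 gave 52, 17 and 13. With the 6 libraries alone in the fit, in place of all 18, limma called 0 genes (1028 at an unadjusted p under 0.05), whereas without C_1d replicate 1 such a fit called 781. The libraries of C_10d and C_1d did not overlap for 22 of the 23 genes that rose (8.14% of all genes tested had every C_10d library higher) and for 75 of the 79 that fell (7.86% had every C_10d library lower). The split depended on the scaling. Without any scaling, which moved the median log2 fold change of all genes to 0.24 (0.59 without C_1d replicate 1), 2 genes rose and 51 fell, or 1168 and 253 without C_1d replicate 1. Quantile normalization gave 35 and 68, or 327 and 433. Few of the genes carry a name. Of 382 tested genes with a gene symbol, 17 were called with all libraries (1 rose and 16 fell) and 85 without C_1d replicate 1 (23 rose and 62 fell). The other genes have only locus numbers, and 26 lists of 207 genes of known function were drawn up from the symbols.

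The royal jelly protein genes held the largest decreases. Of the 9 members, which lie in a row on linkage group 11 of the assembly Amel_HAv3.1, Mrjp1, Mrjp2, Mrjp3, Mrjp4, Mrjp5 and Mrjp7 fell in C_10d, both with all libraries and without C_1d replicate 1, and their median log2 fold change was -5.76 over the 9 genes (-8.17 without that library), against -0.001 over all genes (0.03). Mrjp1, the main protein of royal jelly (linkage group 11, 2274667 to 2277905), was at 5.07, 21.4 and 54.9 in C_10d, against 1432, 30564 and 39732 in C_1d. Every C_10d library was below every C_1d library, and the lowest C_1d library was replicate 1. The log2 fold change was -9.36 (standard error 1.11, adjusted p = 0.000846 in limma), and -10.90 without C_1d replicate 1 (adjusted p = 5.78e-07). Mrjp2 (2301533 to 2304856) was at 0.409, 1.17 and 2.20 in C_10d, against 151, 7893 and 8650 in C_1d. This was the largest change of any gene tested, -10.90 on the log2 scale (standard error 1.09, limma adjusted p = 0.000265) and -12.82 without C_1d replicate 1 (adjusted p = 1.67e-09). Mrjp3 was at 1.95, 8.72 and 19.7 in C_10d, against 478, 8198 and 11809 in C_1d (log2 fold change -8.98, limma adjusted p = 0.000621; without C_1d replicate 1, -10.44). Mrjp4 was at 0.39, 1.28 and 2.4, against 61.7, 3219 and 4809 (-9.69, adjusted p = 0.00119; -11.69). Their C_10d and C_1d libraries lay far apart, and again C_1d replicate 1 was the nearest to C_10d.

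Mrjp5 and Mrjp7 had lower levels at 1 d than these 4 genes. Mrjp5 was at 4.12, 20.4 and 10.3 in C_10d, against 54.5, 690 and 800 in C_1d (log2 fold change -5.01, limma adjusted p = 0.00836; without C_1d replicate 1, -6.27). Mrjp7 was at 2.99, 2.08 and 3.91 in C_10d, against 5.67, 824 and 907 in C_1d, so that C_1d replicate 1 was just above the C_10d libraries. Its log2 fold change was -5.76 (limma adjusted p = 0.0373, and 0.0517 with the replicate number as a block) and -8.17 without C_1d replicate 1 (adjusted p = 2.16e-10). In C_5d Mrjp1 was at 4086, 3194 and 3406, between the C_10d libraries and C_1d replicates 2 and 3, while Mrjp7 was at 11.5, 11 and 8.45, close to its C_10d level.

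The remaining 3 members did not share this pattern. Mrjp6 was at 25, 114 and 66.1 in C_10d, against 341, 133 and 125 in C_1d, a log2 fold change of -1.63 that was not past the threshold (limma adjusted p = 0.0928; without C_1d replicate 1, -1.17 and 0.130). It was highest at 5 d, at 741, 593 and 703 in C_5d. Mrjp8 and Mrjp9 lie at the far end of the row and are known to be expressed more widely than the other members, outside the glands. Mrjp9 was at 34, 52.3 and 56.4 in C_10d, against 50.1, 18.7 and 27.8 in C_1d (log2 fold change 0.64, limma adjusted p = 0.209), and rose without C_1d replicate 1 (1.02, adjusted p = 0.00386). Mrjp8 was at 4.27, 6.25 and 6.42, against 7.13, 3.6 and 3.94 (0.25, adjusted p = 0.705; without that library 0.55, adjusted p = 0.238, though it was called without scaling, adjusted p = 0.0284).

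**Figure D2:**
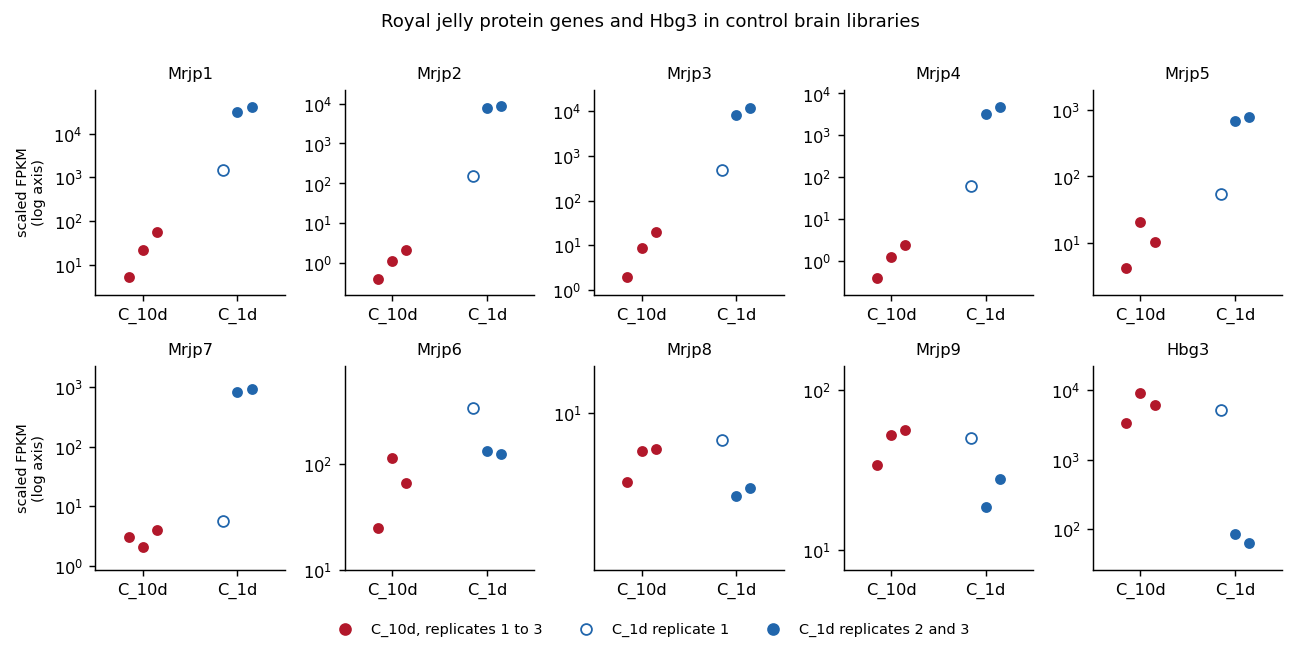
Scaled FPKM (y axis, log scale) of the 9 Mrjp genes and Hbg3 in each C_10d library (left, red) and each C_1d library (right, blue; replicate 1 open). For 6 Mrjp genes every C_10d library is below every C_1d library, and Hbg3 in C_1d replicate 1 (5220) lies among the C_10d libraries.

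Hbg3, the alpha-glucosidase of the glands of older workers (linkage group 6, 4602439 to 4613520), was higher in C_10d than in 2 of the 3 C_1d libraries. It was at 3329, 8918 and 6124 in C_10d, against 5220, 86.2 and 64.4 in C_1d. C_1d replicate 1 lay within the range of C_10d, and the other C_1d libraries were far below it. With all libraries the log2 fold change of 4.20 was not past the threshold (standard error 1.20, limma adjusted p = 0.0787), and without C_1d replicate 1 Hbg3 rose by 6.25 (adjusted p = 8.16e-06), the largest increase among the called genes. It was already at 7519, 8127 and 8522 in C_5d. AGLU2, another alpha-glucosidase gene that starts at 4618778 on the same linkage group and was named after its values were seen, was at 9.13, 18.6 and 16.4 in C_10d, against 11.1, 1.93 and 3.05 in C_1d (1.77, limma adjusted p = 0.0559; without C_1d replicate 1 it rose by 2.49, adjusted p = 1.88e-05).

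Markers of tissues beside the brain moved with age as well. The 7 gland markers (Mrjp1, Mrjp2, Mrjp3, Mrjp4, Mrjp5, Mrjp7 and Hbg3) summed to 3344, 8973 and 6217 in C_10d, nearly all of it Hbg3, and to 7402, 51476 and 66771 in C_1d, and none of them was at 0 in all 6 libraries. Glucose oxidase (LOC406081) and apisimin (LOC406093) were also planned as gland markers but left out, since no product names were available to identify them. The authors list both loci among the most abundant mRNAs of control brains at 1 d and 10 d, so these sums do not cover all gland RNA. The 3 retina markers summed to 834, 681 and 617 in C_10d, against 680, 285 and 268 in C_1d. The 5 fat body markers summed to 6.02, 15.8 and 13.3, against 12.4, 54.0 and 57.0, and the 7 muscle markers to 652, 509 and 631, against 625, 836 and 1209. Of the venom gland markers, Apamin was listed at 0 in all 6 libraries, and the 3 together reached at most 2.49. The 1 glia marker was at 28.6, 21.6 and 18.6, against 23.5, 20.3 and 14.7. The neuron markers brp and Syt1 summed to 28.4, 29.7 and 30.2 in C_10d, against 25.1, 26.4 and 23.4 in C_1d. The sums of gland, fat body and retina markers, as the gene levels above, put C_1d replicate 1 nearer to C_10d than to the other C_1d libraries, and the part of these tissues in the changes of single genes was not tested.

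Among storage and transport proteins of the fat body, Hex70a, a hexamerin that stores amino acids, was at 1.09, 3.37 and 3.09 in C_10d, against 5.74, 32.7 and 39.8 in C_1d, without overlap. It fell by 3.06 on the log2 scale (limma adjusted p = 0.0215), and by 3.94 without C_1d replicate 1 (adjusted p = 4.86e-06). Of the list of 6, this was the only member called with all libraries, while without C_1d replicate 1 Hex70c also fell (log2 fold change -2.28) and Tsf1, the iron carrier transferrin, rose. Tsf1 was at 731, 521 and 494 in C_10d, against 568, 199 and 281 in C_1d (0.85, limma adjusted p = 0.189; without C_1d replicate 1, 1.28 and 0.00600). Vitellogenin (Vg), the yolk protein that is abundant in nurses, was at 2.01, 9.95 and 8.24 in C_10d, against 4.04, 16.8 and 13 in C_1d, a difference that was not past the threshold in either case (-0.79, limma adjusted p = 0.519; -1.41, 0.131). JHBP-1, named for binding juvenile hormone and picked after its values were seen, was at 23.7, 31.8 and 37.5 in C_10d, against 29.2, 179 and 270 in C_1d, and fell only in the fit without C_1d replicate 1 (-2.85, adjusted p = 1.23e-06).

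Genes of the cuticle, the outer layer that hardens and darkens in the first days of adult life, were lower where they were called. Of 26 members tested, 2 fell and 0 rose with all libraries (0.845% of all genes fell), and 11 fell and 0 rose without C_1d replicate 1 (6.3% fell). Their median log2 fold change was -0.85 and -1.29, negative also without scaling (-0.61 and -0.75, with 1 member that rose and 6 that fell without C_1d replicate 1) and after quantile normalization (-0.84 and -1.13). CPF2 was at 33.4, 27.3 and 20.8 in C_10d, against 38, 3586 and 3251 in C_1d (log2 fold change -4.83, limma adjusted p = 0.0494, and 0.0527 with the replicate number as a block; without C_1d replicate 1, -6.99). CPR5 was at 6.27, 4.7 and 3.08 in C_10d, against 6.49, 513 and 382 in C_1d (-4.57, adjusted p = 0.0494; -6.59). For both genes C_1d replicate 1 was only just above the C_10d libraries. Among the others, CPR27 was at 4.07, 6.44 and 2.17 in C_10d, against 5.08, 38 and 37.6 in C_1d, and the apidermin Apd-1 at 272, 288 and 150, against 225, 1225 and 1210. CPR27 had a log2 fold change of -3.26 and Apd-1 of -2.42 without C_1d replicate 1, and after quantile normalization the adjusted p of Apd-1 was 0.0517. Y-y, a yellow gene of pigment formation, was at 4.7, 6.04 and 2.2 in C_10d, against 5.13, 29 and 39.4 in C_1d and fell without C_1d replicate 1 (-3.06, limma adjusted p = 3.17e-05).

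Among the odorant binding proteins, small secreted proteins that carry odours and other small molecules, members went both ways. Of 19 tested, 1 rose and 1 fell with all libraries, and 3 rose and 5 fell without C_1d replicate 1, where 3.38% of all genes rose and 6.3% fell. The balance turned with the scaling, since in the fit without that library 5 rose and 3 fell when no scaling was used and 4 rose and 3 fell after quantile normalization. Obp14 was at 0.873, 0.857 and 1.77 in C_10d, against 2.51, 81.8 and 146 in C_1d, and fell (log2 fold change -4.71, limma adjusted p = 0.0356; without C_1d replicate 1, -6.51). Obp4 was at 161, 171 and 182 in C_10d, against 111, 61 and 87.9 in C_1d, and rose (1.02, adjusted p = 0.0483; 1.22), though its adjusted p without scaling was 0.130. Neither gene's groups overlapped. Without C_1d replicate 1, Obp13, Obp17, Obp18 and Obp10 fell as well and Obp16 and Obp3 rose. With the replicate number as a block Obp3 was not past the threshold (adjusted p = 0.0606), and without scaling neither were Obp10 (-0.72, adjusted p = 0.0629) and Obp18 (-0.47, adjusted p = 0.149). After quantile normalization Obp10 was under the limit (-0.89) and the sign of Obp18 turned. Obp13, Obp14, Obp16, Obp17 and Obp18 lie on linkage group 15. The chemosensory protein CSP1 was at 2538, 1629 and 1161 in C_10d, against 2021, 520 and 397 in C_1d, and rose without C_1d replicate 1 (1.89, limma adjusted p = 0.000877). CSP2 fell (-2.13), and CSP3 fell (-1.14, adjusted p = 0.0480, and 0.0502 with the replicate number as a block) in that fit. Without scaling neither was past the threshold (CSP2 adjusted p = 0.102, CSP3 adjusted p = 0.142), and under quantile normalization the sign of CSP3 turned.

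Of 5 genes for antimicrobial peptides, which are secreted against bacteria, 0 were called with all libraries (1 rose after quantile normalization) and 2 rose without C_1d replicate 1. Their median log2 fold change was 1.78 and 2.07. Apidaecin (Apid1) was at 474, 272 and 437 in C_10d, against 219, 22.7 and 30.3 in C_1d, without overlap (log2 fold change 2.85, limma adjusted p = 0.108), and rose without C_1d replicate 1 (3.86, adjusted p = 0.00610). Abaecin (LOC406144) was at 9137, 4582 and 7353 in C_10d, against 2912, 1314 and 1962 in C_1d (1.79, adjusted p = 0.128; without C_1d replicate 1 it rose by 2.07, adjusted p = 0.0253). Both were still low in C_5d, Apid1 at 39.1, 72.8 and 85 and abaecin at 2136, 3100 and 1179. Hymenoptaecin (LOC406142) reached 20550, 10847 and 12847 in C_10d, against 10168, 2239 and 3120 in C_1d, and was not past the threshold (1.78, limma adjusted p = 0.323; 2.43, 0.0970), though it was without scaling and after quantile normalization when C_1d replicate 1 was left out (adjusted p = 0.0214 and 0.00615). Defensin 1 (Def1) was at 3599, 3296 and 3352 in C_10d, against 2816, 7246 and 9507 in C_1d (-0.76, adjusted p = 0.576). Without C_1d replicate 1 its log2 fold change was -1.28. Defensin 2 (Def2) had log2 fold changes of 0.748 with all libraries and 0.895 without that library, and neither defensin was called in either fit. PPO, the phenoloxidase precursor of haemocytes and melanin formation, was at 16.2, 30.4 and 18.4 in C_10d, against 35.9, 38 and 63.9 in C_1d. It fell (-1.09, limma adjusted p = 0.0394, and 0.0566 with the replicate number as a block), but without scaling its adjusted p was 0.279, and after quantile normalization its log2 fold change of -0.87 was under the limit, and neither setting called it without C_1d replicate 1 (-0.63 and -0.88). PPO was also the 1 marker fixed for haemocytes. Without C_1d replicate 1 the peptidoglycan recognition gene Pgrp-s2 rose (1.54) and PGRP-S3 fell (-1.50, but -0.89 without scaling, under the limit).

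**Figure D3:**
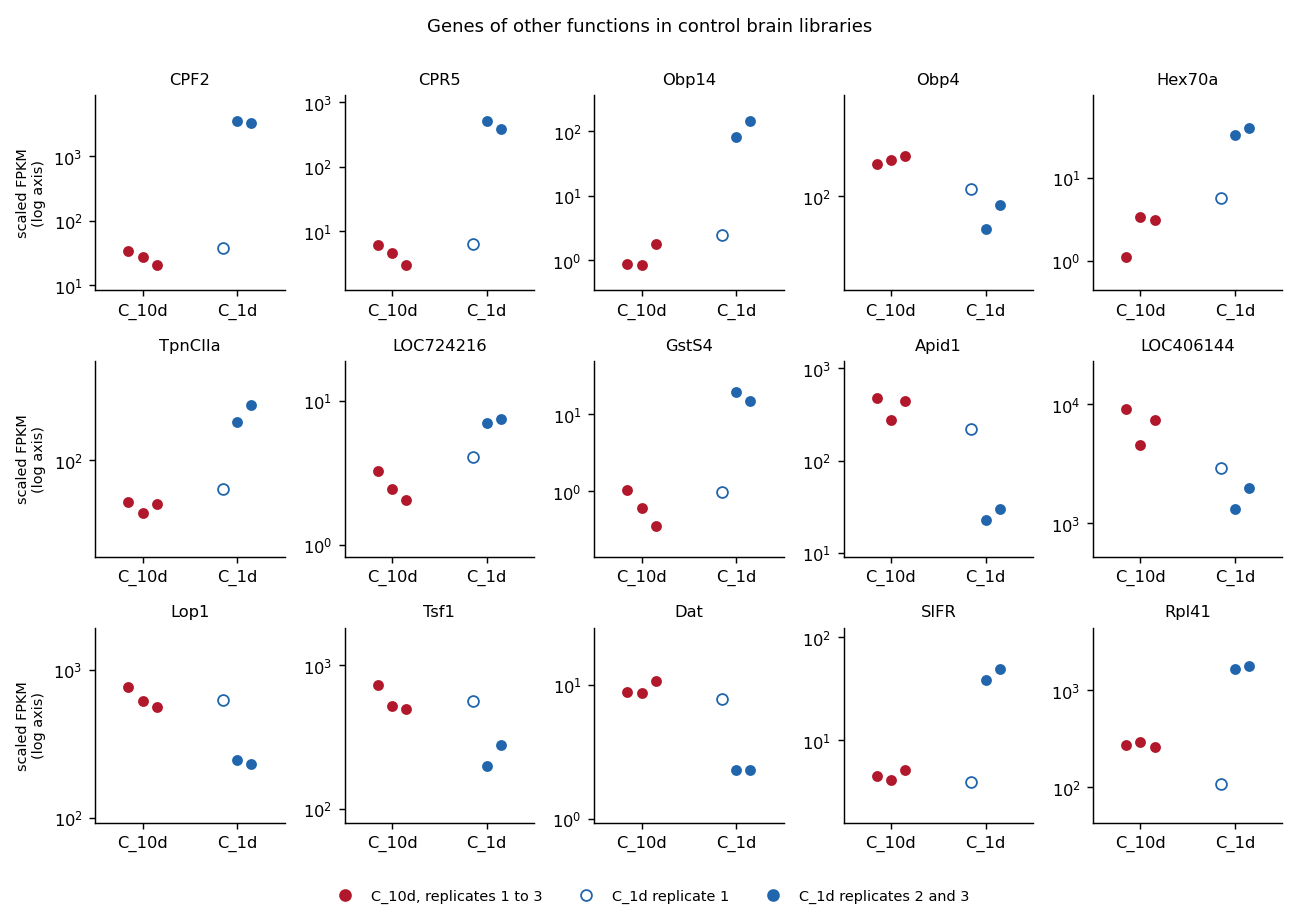
Scaled FPKM (y axis, log scale) of 15 genes of the lists in each C_10d library (left, red) and each C_1d library (right, blue; replicate 1 open). CPF2 and CPR5 in C_1d replicate 1 (38 and 6.49) lie by the C_10d libraries and far under C_1d replicates 2 and 3, and Lop1, Tsf1 and Rpl41 show the same library at or past the C_10d level.

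In the hormone list, LOC724216 (jhamt, the methyltransferase of the last step of juvenile hormone synthesis) was at 3.23, 2.45 and 2.06 in C_10d, against 4.09, 7.03 and 7.53 in C_1d, without overlap. It fell by 1.21 on the log2 scale (limma adjusted p = 0.0333), and by 1.48 without C_1d replicate 1 (adjusted p = 0.000388), but was not past the threshold without scaling (adjusted p = 0.273 and 0.0904). The ecdysone response gene Br-c was at 1.31, 1.21 and 1.27 in C_10d, against 1.16, 0.427 and 0.446 in C_1d, and rose without C_1d replicate 1 (1.35, limma adjusted p = 0.000172). Kr-h1, the response gene of juvenile hormone, was at 45, 50.3 and 65.9, against 49.3, 40.6 and 35.2 (0.36, adjusted p = 0.395; 0.49, 0.185). None of the other 6 genes of this list was called in either case, while without scaling and without C_1d replicate 1, 2 genes of the list rose and 0 fell.

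Of the listed genes for nerve cell signalling, none was called with all libraries (1 rose after quantile normalization), and few were without C_1d replicate 1. Of 12 genes for biogenic amines, the dopamine transporter Dat and the dopamine receptor Dop1 rose and TyHyd, tyrosine hydroxylase, the first enzyme of dopamine synthesis, fell in that fit, whereas without scaling 5 rose and 0 fell. Dat was at 8.76, 8.72 and 10.6 in C_10d, against 7.86, 2.31 and 2.32 in C_1d (log2 fold change 1.39, limma adjusted p = 0.0538; without C_1d replicate 1, 1.96 and 7.53e-06). After quantile normalization Dat was past the threshold with all libraries (1.37, limma adjusted p = 0.0467). TyHyd was at 19.6, 24.5 and 26.9 in C_10d, against 18.9, 65 and 68.6 in C_1d (-0.90, adjusted p = 0.222; -1.50, 0.00101), and was not called without scaling (adjusted p = 0.0749). For both genes C_1d replicate 1 was close to the C_10d libraries. Tyrosine hydroxylase also serves the tanning of cuticle. Of 12 neuropeptide genes and receptors, SIFR, the receptor of the peptide SIFamide, fell and NPF, Pban and the corazonin receptor Crzr rose without C_1d replicate 1, and without scaling 5 rose and 1 fell. SIFR was at 4.53, 4.15 and 5.12 in C_10d, against 3.94, 38.6 and 49.4 in C_1d (-2.08, limma adjusted p = 0.0972; -3.23, 6e-06). NPF, a feeding peptide, was at 1.92, 1.01 and 1.18, against 1.34, 0.38 and 0.262 (1.77, adjusted p = 0.0367 without C_1d replicate 1), and its adjusted p was 0.0558 after quantile normalization.

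With the scaling used here, no member of the other lists for nerve cells was called in either fit. This held for 10 nicotinic acetylcholine receptor subunits, the targets of neonicotinoids, 7 receptors for GABA, glutamate and histamine, 7 genes of neurons and synapses, 7 channels for spiking and 5 kinases and cyclases of learning. Their median log2 fold changes were 0.23, 0.25, 0.45, 0.46 and 0.37 with all libraries and 0.24, 0.40, 0.44, 0.65 and 0.42 without C_1d replicate 1, in that order. The subunit nAChRa6 was at 2.53, 1.9 and 2.14 in C_10d, against 1.65, 1.05 and 1.14 in C_1d (0.75, limma adjusted p = 0.137; 0.93, 0.0328), and nAChRa9 at 1.35, 1.59 and 1.31, against 1.09, 2.54 and 2.74 (-0.46, 0.415; -0.86, 0.0175). Both fold changes stayed under the limit of 1. Without scaling, in the fit that leaves out C_1d replicate 1, nAChRa6 rose (adjusted p = 0.0277), as did 1 of the 7 receptors, 2 of the 7 neuron and synapse genes, 5 of the 7 spiking channels and 1 of the 5 kinases and cyclases, and the median of all genes was then 0.59. A difference under the limit does not show that the levels were alike. Genes with only locus numbers were mostly not sorted by function, so receptors and channels outside the lists were not covered.

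Opsins, the light receptors of the retina, were higher in C_10d than in C_1d replicates 2 and 3. Lop1, the main opsin for long wavelengths, was at 768, 613 and 557 in C_10d, against 624, 246 and 230 in C_1d (log2 fold change 0.96, limma adjusted p = 0.102), and rose without C_1d replicate 1 (1.43, adjusted p = 9.16e-05), as did Lop2 (1.22). The opsins for ultraviolet and blue light, Uvop and Blop, had log2 fold changes of 0.54 and 0.64 with all libraries and of 0.67 and 0.96 without that library, under the limit. Only with C_1d replicate 1 left out did both pass it without scaling and after quantile normalization. No opsin was called with all libraries. The eye is no part of the brain, and Lop1, Uvop and Blop are the retina markers whose sums are given above.

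Muscle genes were the other tissue markers among the calls. The troponin C genes TpnCIIa and TpnCIIb fell in both fits, while the other 5 muscle markers were not called. These went both ways. TpnI, TpnT and TpnCI had negative log2 fold changes in both fits. TpnCIIIa (0.096, and 0.114 without C_1d replicate 1) and TpnCIIIb (0.747, and 1.158 without it) had positive ones. After quantile normalization without that library, 1 of the 7 muscle markers rose and 2 fell. TpnCIIa was at 41, 32.5 and 39.4 in C_10d, against 54.8, 226 and 322 in C_1d (-2.08, limma adjusted p = 0.0364; -2.84, 1.99e-06). TpnCIIb was at 6.57, 4.4 and 4.14, against 9.51, 42.1 and 64.8 (-2.56, adjusted p = 0.0344; -3.38, 1.73e-05). The C_10d libraries of both were below all C_1d libraries.

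Genes of protein synthesis, energy and detoxification were called mostly without C_1d replicate 1. Of 7 cytosolic ribosomal protein genes, 0 were called with all libraries and 5 fell without that library, but 3 without scaling and 1 after quantile normalization. Rpl41 was at 275, 292 and 259 in C_10d, against 107, 1665 and 1751 in C_1d, so that C_1d replicate 1 lay on the far side of C_10d (log2 fold change -1.30, limma adjusted p = 0.404; -2.63, 0.00144). Sod1, a superoxide dismutase, was at 179, 239 and 202, against 141, 456 and 539, and fell without C_1d replicate 1 (-1.27, adjusted p = 0.00146), though not without scaling (-0.66, adjusted p = 0.0521) or after quantile normalization (-0.11, adjusted p = 0.644). GstS4, a glutathione S-transferase, was at 1.05, 0.607 and 0.355 in C_10d, against 0.991, 19.3 and 14.7 in C_1d. It fell in both fits (-3.24, limma adjusted p = 0.0436, and 0.0530 with the replicate number as a block; -4.56, 5.61e-07), and with all libraries its groups overlapped, since C_1d replicate 1 was below C_10d replicate 1. The cytochromes P450 LOC724946 (CYP6AS11) and LOC551028 (CYP6AS13) rose without C_1d replicate 1. In that fit 4 of the 7 listed P450 genes rose without scaling, and 4 after quantile normalization. Of the 4 listed glutathione S-transferases and esterases, 2 rose and 1 fell under each of these settings. LOC724946 was at 16.1, 25 and 24.6 in C_10d, against 18.5, 4.09 and 4.89 in C_1d (1.56, adjusted p = 0.0585; 2.24, 6.59e-06). Of 9 mitochondrially encoded genes tested, ND5 fell (-1.43, adjusted p = 0.00958) and 8 were not called without C_1d replicate 1, and none was called with all libraries. Without scaling ND5 was not past the threshold either (-0.82, adjusted p = 0.133).

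**Figure D4:**
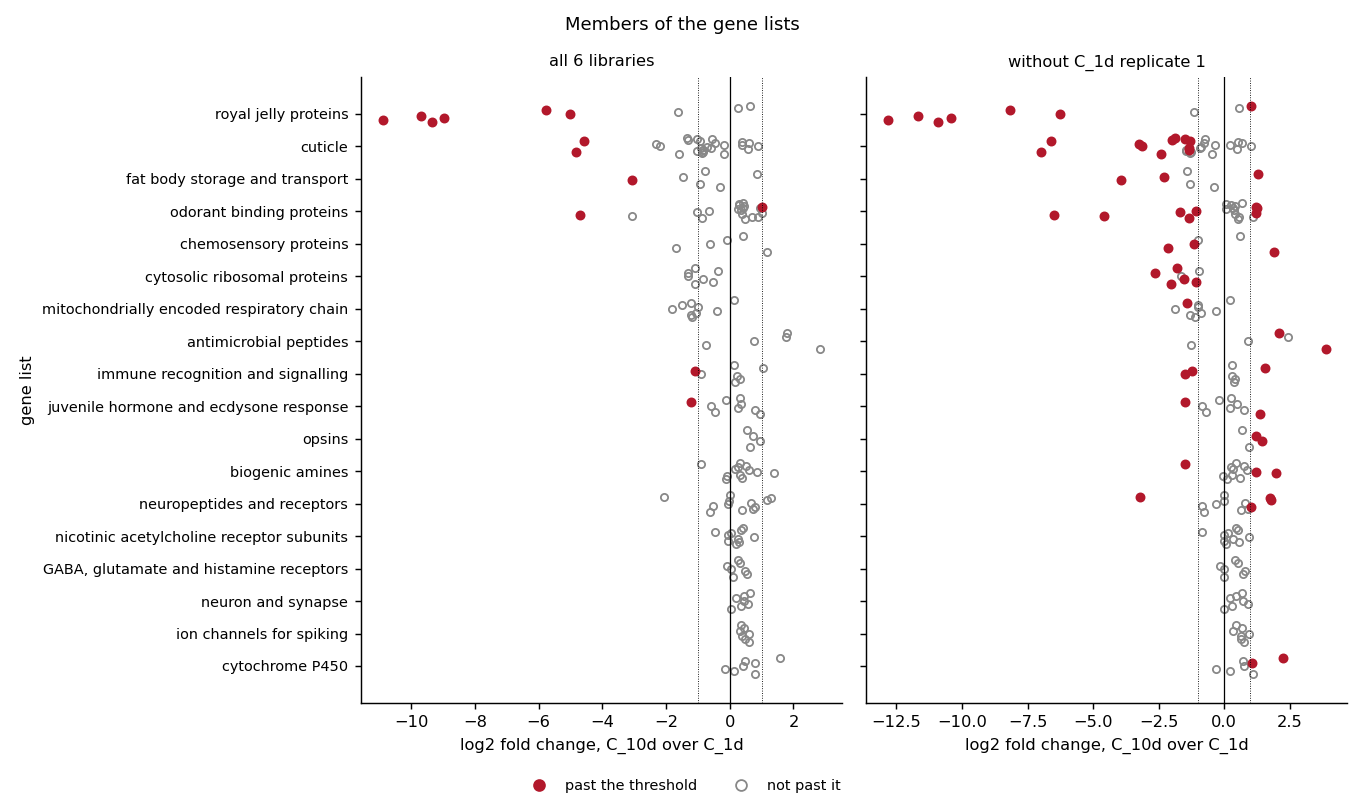
Log2 fold change of C_10d over C_1d (x axis) for the tested members of 18 gene lists (y axis), with all 6 libraries (left) and without C_1d replicate 1 (right), where filled red points are past the threshold and dotted lines mark log2 fold changes of -1 and 1. Of the 9 royal jelly genes 6 stand at -5.01 or lower with all libraries. No member of the lists of nicotinic receptor subunits, of GABA, glutamate and histamine receptors, of synapse genes and of spiking channels is past the threshold in either panel.

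Genes without a symbol made up most of the calls, and several of the largest changes were theirs. LOC725804 (linkage group 8, 10430848 to 10433690) was at 4.51, 2.25 and 1.75 in C_10d, against 21.3, 2676 and 2643 in C_1d, and fell (log2 fold change -7.61, limma adjusted p = 0.0107; without C_1d replicate 1, -9.93). LOC725838, which starts at 10435547 beside it, was at 2.5, 2.1 and 1.73, against 2.33, 232 and 213, and fell without C_1d replicate 1 (-6.67, adjusted p = 1.26e-08; with it -4.49, 0.0599). LOC725215 was at 2.24, 1.52 and 1.48, against 3.05, 114 and 124 (-4.29, adjusted p = 0.0358; -6.03). In the other direction, LOC413907 (linkage group 1, 10746147 to 10753186) was at 5.37, 9.19 and 12.2 in C_10d, against 4.08, 0.256 and 0.353 in C_1d, and rose (3.28, limma adjusted p = 0.0317; 4.41). Its neighbour LOC100578735, which starts at 10742430, rose too (2.34, adjusted p = 0.0158; 2.88). LOC552811 was at 102, 278 and 448, against 127, 12.5 and 18.5 (2.91, adjusted p = 0.0478, and 0.0531 with the replicate number as a block; 3.93), and LOC408807 at 201, 118 and 147, against 115, 3.44 and 4.27, which rose without C_1d replicate 1 only (3.65, adjusted p = 0.0681; 5.27, 3.36e-05). With all libraries and no scaling, LOC413907 (adjusted p = 0.0519) and LOC552811 (0.0855, and 0.0513 after quantile normalization) were not past the threshold. LOC726688 rose in both fits too. With all libraries its log2 fold change was 4.17 without scaling (limma adjusted p = 0.0523) and 4.10 with the replicate number as a block, neither past the threshold. A pair of genes with symbols outside the lists, named after their values were seen, fell in both fits: ACSF2 (-2.25, adjusted p = 0.0358; -2.99) and DHRS4 (-1.03, 0.0422, and 0.0557 with the replicate number as a block; -1.26). DHRS4 was not past the threshold without scaling (adjusted p = 0.444, and 0.198 without C_1d replicate 1) and was under the limit after quantile normalization with all libraries (-0.92).

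The same span of age in dinotefuran-fed brains shares no library with the control comparison. Both were tested in the same fit with a shared estimate of the spread, so their calls are not independent. In the fed brains 1322 genes (14.1%) were called between DT_10d and DT_1d, 496 that rose (5.3%) and 826 that fell (8.83%), with 5649 and 213 when no scaling was used. Of the 79 genes that fell in C_10d against C_1d, 71 (89.9%) also fell in the fed brains, which was 8.6% of the genes that fell there, and of the 23 that rose, 14 (60.9%) also rose, 2.8% of the genes that rose there. With that library left out the shared genes were 498 of 589 that fell (84.6%) and 164 of 316 that rose (51.9%). In that fit 849 genes fell and 507 rose in the fed brains, of which these were 58.7% and 32.3%. Mrjp2 was at 4.64, 11.6 and 15.2 in DT_10d, against 14190, 10866 and 8786 in DT_1d, a log2 fold change of -10.19 (limma adjusted p = 3.52e-05). CPF2 was at 32.2, 32.3 and 34.9 in DT_10d, against 3019, 3966 and 3014 in DT_1d (-6.64, adjusted p = 0.000791). The 3 libraries of DT_1d were alike in these genes, as C_1d replicates 2 and 3 were and C_1d replicate 1 was not.

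The difference between the 2 age changes was tested as an interaction, DT_10d over DT_1d against C_10d over C_1d. With all libraries 24 genes (0.257%) were called, and 47 (0.503%) without C_1d replicate 1, and of the lncRNAs described next 13 (0.297%) and 20 (0.457%). Hbg3 was at 762, 351 and 630 in DT_10d, against 290, 124 and 943 in DT_1d, an age change of 0.77 (limma adjusted p = 0.664). Its interaction was -3.43 with all libraries (adjusted p = 0.396) and -5.47 without C_1d replicate 1 (adjusted p = 0.00687), which was past the threshold. The troponin C gene TpnCI was at 102, 105 and 107 in C_10d, against 111, 143 and 211 in C_1d (-0.51, adjusted p = 0.186), and at 40.4, 41.9 and 30.4 in DT_10d, against 244, 240 and 207 in DT_1d (-2.62, adjusted p = 4.33e-06). Its interaction of -2.11 was past the threshold in both fits (adjusted p = 0.00623; without C_1d replicate 1, -1.89 and 0.00387). CPR19 fell by more in fed brains than in controls in the fit without C_1d replicate 1 (interaction -2.84, adjusted p = 0.00555; with all libraries -3.75, 0.0535).

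**Figure D5:**
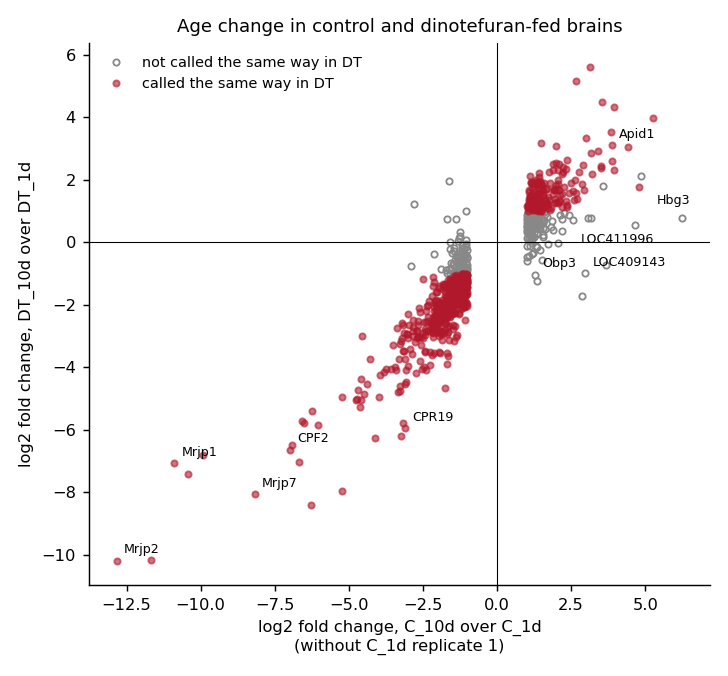
Log2 fold change of DT_10d over DT_1d (y axis) against that of C_10d over C_1d without C_1d replicate 1 (x axis) for the 905 genes called in that control comparison, where red points are genes called the same way in both. Mrjp2 stands at -12.82 and -10.19, and Hbg3 at 6.25 on the x axis and 0.77 on the y axis.

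Long noncoding RNAs (lncRNAs), transcripts without a protein product, were tested with the genes. Of 4378 lncRNA transcripts tested, 29 (0.662%) were called in limma with all libraries, 12 that rose (0.274%) and 17 that fell (0.388%), and 272 (6.21%) without C_1d replicate 1, 138 that rose (3.15%) and 134 that fell (3.06%). Without scaling the split was 9 and 8 with all libraries and 251 and 63 without C_1d replicate 1. The 29 were all among the 272. Most were low, and 13 of the 29 had a group mean of at least FPKM 1. Of the 29, 19 are listed under a protein-coding gene that was tested, and for 3 of these the gene was called in the same direction. XR_003305349.1, listed under LOC100576161, was at 1.42, 0.928 and 1.35 in C_10d, against 2.32, 39.2 and 43.6 in C_1d, and fell (log2 fold change -3.62, limma adjusted p = 0.0382, and 0.0526 with the replicate number as a block; -4.98 without C_1d replicate 1). XR_407570.3, listed under LOC102654852, was at 3.66, 3.36 and 3.77 in C_10d, against 1.76, 0.29 and 0.575 in C_1d, and rose (2.23, adjusted p = 0.0356, and 0.0526 with the block; 2.85). TCONS_00060063, listed under LOC409486, was at 1.09, 1.31 and 1.77, against 0.741, 0.51 and 0.51, and rose (1.11, adjusted p = 0.0333; 1.26). With all libraries and no scaling, neither XR_407570.3 (adjusted p = 0.0637) nor TCONS_00060063 (0.221) was past the threshold.

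The other 3 named lncRNAs were listed at 0 in libraries of a group, for which no fold change between the ages is given. TCONS_00054972 was listed at 0 in the 3 C_10d libraries and in C_5d and at 0.989, 1.35 and 2.1 in C_1d (limma adjusted p = 0.000621), where C_1d replicate 1 went with the other C_1d libraries. TCONS_00068689 reached 7.69, 5.13 and 6.94 in the C_10d libraries, against listed values of 0 in all 3 C_1d libraries (adjusted p = 0.0333). TCONS_00061203 was listed at 0 in C_10d replicates 1 and 2 and at 0.412 in replicate 3, against 2.03, 1.34 and 0.89 in C_1d (adjusted p = 0.0165, and 0.0519 without scaling). For TCONS_00054972 and TCONS_00061203, C_1d replicate 1 was at or near the level of the other C_1d libraries, unlike in most genes above.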

How the data were processed

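The authors used Hisat2 for alignment (genome Amel_HAv3.1), StringTie for assembly, Cuffmerge and Cuffcompare to merge and classify transcripts, and Cuffdiff of Cufflinks v2.1.1 for the deposited FPKM. The deposited FPKM values cover 24419 mRNA transcripts, which carry the value of their gene (9939 genes), and 6760 lncRNA transcripts. The lncRNA values of DT_1d replicate 1 equal those of DT_10d replicate 1 and were not used, which left 17 libraries for lncRNAs. Groups came from the sample labels. Each library was divided by its median ratio to the geometric mean over 9119 genes above 0 in all 18 libraries. The tests ran on log2(FPKM + 0.1) in limma (version 3.58.1, under R 4.3.3) as 6 group means over all libraries, with a trend (prior degrees of freedom 3.42, and 3.51 without C_1d replicate 1), for rows of FPKM at least 0.1 in at least 3 libraries, and p-values were adjusted over genes and lncRNAs together. No read counts were recovered, so no count model was used. The procedure was also run on simulated data whose spread was taken from the groups other than C_1d and DT_1d. No simulated C_1d library stood apart, so that run does not show how the procedure performs on the comparison with all libraries. Gene names and positions came from the RefSeq annotation of Amel_HAv3.1, which matched 9935 of 9939 genes.

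Libraries of C_10d and C_1d with the same replicate number deviated together from their group means (r = 0.241, 0.155 and 0.149 for numbers 1, 2 and 3), though C_10d replicate 2 correlated more with C_1d replicate 3 (0.192). The labels and methods give no pairing, so a fit with the replicate number as a block was an alternative. The other alternatives were no scaling, quantile normalization, scaling over the 6 libraries, a pseudocount of 1 or 0.01, no filter, a mean FPKM of at least 1, the 6 libraries or the 9 control libraries alone, no trend, adjustment within each class, no limit on the fold change, and each library left out. These were planned for the comparison with all libraries. Their use on the fits without C_1d replicate 1, on the fed brains and on the interaction was added after seeing the data, for the last 2 without the scaling over the 6 libraries and the fits to 6 or 9 libraries alone.

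Genes were named by rule. These were the 15 largest increases and 15 largest decreases with all libraries (same sign without C_1d replicate 1, higher group mean at least FPKM 1), 10 each way without it, members of the 26 lists, 3 lncRNAs each way and the 10 most abundant genes of each group, of which the text describes those with a known role or the largest changes. The members and lists were chosen with earlier results of these data known. Sequences of these genes were not used here. Summaries and figures were made in matplotlib 3.10.9, pandas 2.3.3 and numpy 2.4.6 under Python 3.11.15.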

Additional observations from a re-analysis of the deposited data

Results flagged for a closer look

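A few of the named genes changed differently with age in dinotefuran-fed and control brains, tested as the interaction of age and treatment in limma (the age change of fed brains minus that of controls, on the log2 scale). Of these, LOC411996 and LOC726737 are described only here. With all libraries these were TpnCI (-2.11) and the lncRNA TCONS_00054972 (4.57). Without C_1d replicate 1 they were LOC725804 (3.13), CPR19 (-2.84), TpnCI (-1.89), LOC411996 (-4.08), LOC726737 (-3.01), Hbg3 (-5.47) and TCONS_00054972 (4.81). LOC411996 was at 2.47, 2.42 and 2.97 in C_10d, against 9.52, 0.0157 and 0 in C_1d, and at 2.7, 3.5 and 3.74 in DT_10d, against 2.3, 1.39 and 3.2 in DT_1d. The C_1d libraries other than replicate 1 were under the pseudocount of 0.1, so the -4.08 is no measure of a fold change. C_1d replicate 1, at 9.52, was above every C_10d library. LOC726737 was at 36.1, 75.6 and 67.9 in C_10d, against 77, 2.39 and 1.59 in C_1d, and at 17.1, 19.6 and 22.2 in DT_10d, against 6.25, 3.45 and 8.11 in DT_1d. TCONS_00054972 was listed at 0 in most of the libraries compared, so that its values are set by the pseudocount of 0.1 and are no measure of a fold change, and DT_1d had only 2 libraries for lncRNAs.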

How the results depend on the processing

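The number of genes called with all 6 libraries depended on most choices (102 in the text). It was 53 without scaling, 56 with a pseudocount of 1, 32 with no filter, 158 at a mean FPKM of at least 1, 35 without the trend, 8 with the 9 control libraries alone, and 0 with the 6 libraries alone or scaled over the 6 (limma, 1028 and 1032 at an unadjusted p under 0.05), and it lay between 10 and 905 when 1 library was left out. Without C_1d replicate 1 (905 in the text) it was 2102 with no limit on the fold change and 1421 without scaling, and between 605 and 974 under the other alternatives. The 29 lncRNAs were 17 without scaling, 6 with scaling over the 6 libraries, 7 with a pseudocount of 1, 19 at a mean FPKM of at least 1, 4 with the 6 libraries alone and 4 with the 9 control libraries, and between 7 and 272 when 1 library was left out. With C_1d replicate 1 left out (272) they were 158 when adjusted within lncRNAs, 52 with a pseudocount of 1 and 69 at a mean FPKM of at least 1. The 1322 genes of fed brains were 3379 with no limit on the fold change, 5862 without scaling and 803 with a pseudocount of 1, and between 1179 and 1339 with 1 library left out. The 24 interaction genes were 8 without scaling and 15 with a pseudocount of 1, and between 7 and 47 with 1 library left out. The cause of these shifts was not tested. Under quantile normalization the log2 fold changes of CSP3 (0.307, and 0.229 without C_1d replicate 1), Obp18 (0.0549, and 0.0647 without it), Def1 (0.127, all libraries) and Sod1 (0.0781, all libraries) turned positive. With the replicate number as a block 77 genes were called with all libraries and 921 without C_1d replicate 1, and of the named genes and lncRNAs the block changed no call other than those given in the text and that of LOC726688 (adjusted p = 0.0566). Low genes are limited by the unknown number of reads behind each value.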
